A study of Mus musculus with 12 samples.

Results

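The 39 genes of the mouse Hox clusters were followed through a study of embryonic stem (ES) cells of the 129 and B6J backgrounds. Members were all rows named Hox with a cluster letter from a to d and a number; they are 39 of the 26742 genes in the table. Cluster A held 11 of them, cluster B 10, cluster C 9 and cluster D 9. All cells were male, of the ES cell type per the labels, and were kept in serum with leukaemia inhibitory factor. Cells of each background were given DMSO, the solvent, or PD 0325901, a MEK inhibitor, at 1 µM every day from day 0 to day 5, when RNA was taken. The 4 groups are thus 129 and B6J, each with solvent or inhibitor, and each group has 3 poly(A) RNA libraries. MEK is the kinase that activates ERK. No clone is named and each background has 1 genotype label, so effects of the background and of the particular line cannot be told apart. Whether the libraries of a group are separate cultures is not stated; p-values therefore measure library-to-library spread alone, and that spread may be technical.

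Hox genes encode homeodomain transcription factors that give cells their position along the body axis. The 4 clusters arose by duplication, so genes with the same number in different clusters, called paralogues, are closest in sequence. Genes at the 3′ end of a cluster, with low numbers, are switched on earliest and most anteriorly in the embryo, and those at the 5′ end last and most posteriorly. Retinoic acid and Wnt signals open the 3′ end and the Cdx factors activate central genes, whereas Polycomb complexes hold the clusters silent in undifferentiated ES cells. Fibroblasts keep the set of Hox genes of the body position they came from. In genome build GRCm38, cluster A lies on the minus strand of chromosome 6. The other clusters lie on the plus strand, cluster B at chr11:96194316-96368256, cluster C at chr15:102921103-103036852 and cluster D at chr2:74668310-74765142.

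Libraries held 62634533 to 96341637 counts, of which Hox genes took between 0.00477 and 0.0142%. A list of 10 ES cell markers summed to between 3176 and 5528 CPM (counts scaled to a common library total, with TMM factors) in every library, so transcripts of the labelled cell type were abundant. Replicate 1 of 129 with DMSO stood apart from its group: a chi-square comparison of counts over genes gave 185 and 176 per degree of freedom against replicates 2 and 3, and 7.83 between these. Its summed level of 7 primitive endoderm markers was 2750 CPM, against 104 CPM in the lowest library of the group. A list of 21 fibroblast markers was measurable in all 12 libraries and stood at 3713 ± 1523 CPM (SD, n = 3) in 129 with DMSO and 8605 ± 2183 CPM with the inhibitor. In B6J the list stood at 4453 ± 445 CPM with DMSO and 8771 ± 2016 CPM with the inhibitor. In bulk RNA, fewer cells of a type and less RNA per cell cannot be told apart.

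Hox transcripts were scarce. The highest value of any member in any library was 26.3 CPM (Hoxc8), 22 of the 39 reached a mean of 1 CPM in some group, and 6 reached 5 CPM. Hoxb9, Hoxc8 and Hoxc6 together made up 39.2 ± 2.12% (SD, n = 3) of the summed Hox CPM in 129 with DMSO and 45.8 ± 0.52% with the inhibitor. The same 3 genes made up 38.2 ± 1.68% and 46.0 ± 1.86% in B6J. Per kilobase of exon, Hoxb9, Hoxc8 and Hoxc6 led in 129 with DMSO, Hoxb9 at 3.95 ± 1.37 CPM per kb, Hoxc8 at 2.93 ± 1.38, and Hoxc6 at 1.82 ± 0.65. Each of these neighbours in the order differed by less than the larger of their SDs. With the inhibitor in 129, Hoxc8 stood at 7.38 ± 1.65 and Hoxb9 at 7.33 ± 1.42 CPM per kb, followed by Hoxc6 at 5.29 ± 1.29 and Hoxc13 at 3.27 ± 0.27. In B6J with DMSO the order began with Hoxb9 at 4.38 ± 0.78 and Hoxc8 at 3.47 ± 0.99 CPM per kb.

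**Figure D1:**
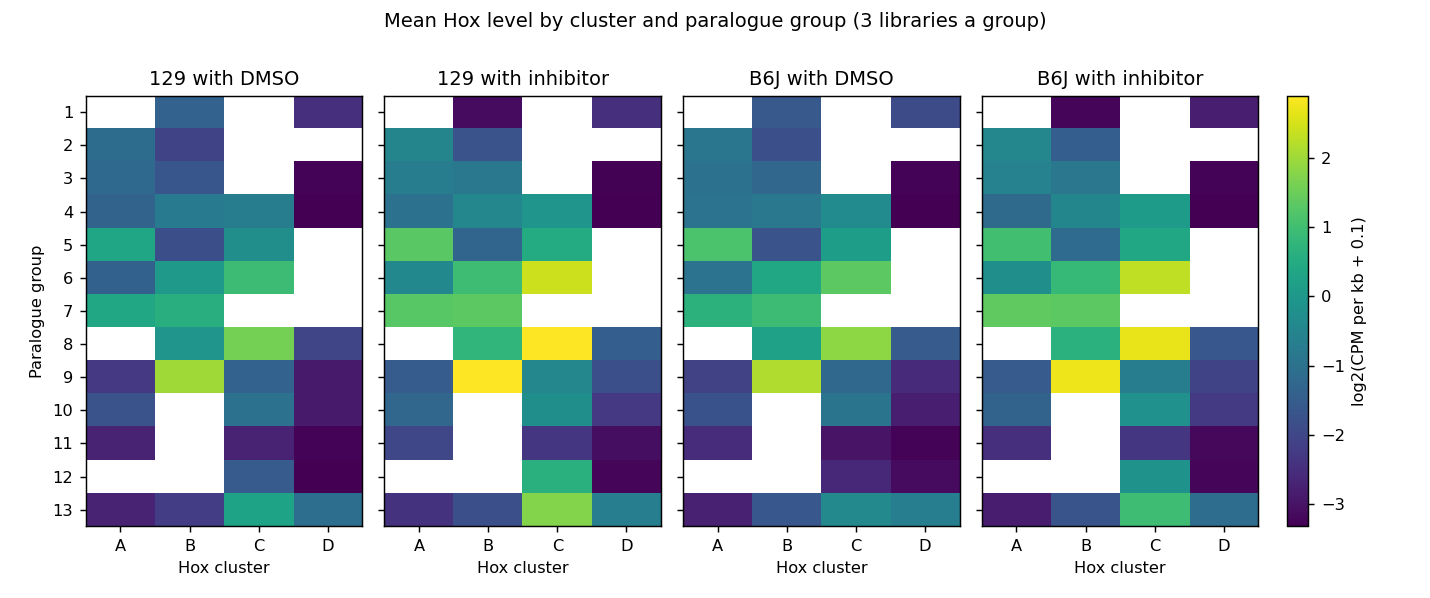
Mean level of 38 of the 39 Hox genes, as log2 of CPM per kb plus 0.1, by cluster (columns) and paralogue group (rows) in the 4 groups of 3 libraries; white squares are positions with no gene shown. Hoxb9, Hoxc8 and Hoxc6 are brightest with the inhibitor, and cluster D is the darkest column throughout.

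Cluster D was the lowest of the clusters in every group, with a summed level of 0.679 ± 0.082 CPM per kb in 129 with DMSO and 1.19 ± 0.10 with the inhibitor. Cluster C stood at 8.11 ± 3.19 and 21.1 ± 3.84 CPM per kb in the same 2 groups. In B6J, cluster D stood at 1.08 ± 0.086 CPM per kb with DMSO and 0.908 ± 0.084 with the inhibitor. Cluster C stood at 9.09 ± 1.56 and 17.5 ± 2.22 CPM per kb there. The cluster D sum was thus higher with the inhibitor in 129 and lower in B6J, without overlap of libraries, and these differences were not tested. Hoxd4 had 0 counts in all 12 libraries, which allows up to 0.00325 CPM over the pooled libraries if each count is independent. Most low values were even, so the limit may be higher. Hoxd3, Hoxd11 and Hoxd12 had between 0 and 9 counts in any library. These 4 cluster D genes did not pass the filter on low counts, and 35 of the 39 members were tested. Hoxd3 and Hoxd4 share exons with each other and with the gene model Gm28230, with 37.7% and 47.7% of their exon bases unshared on the same strand, so reads in the shared part may have gone uncounted. The highest gene of cluster D was Hoxd13, a gene of digit and genital development. Its levels were 0.522, 1.09 and 1.19 CPM in the DMSO libraries of 129, replicates 1 to 3, and 1.13, 1.06 and 1.77 CPM with the inhibitor. In B6J they were 1.26, 1.35 and 1.38 CPM with DMSO and 0.823, 1.05 and 0.883 CPM with the inhibitor. The B6J groups did not overlap and the 129 groups did, and neither response was called (log2 change 0.51 in 129, adjusted p = 0.214, and -0.53 in B6J, adjusted p = 0.203, edgeR quasi-likelihood test).

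The first question was how the clusters responded to 5 days of MEK inhibition in each background. In 129, 16 of the 35 tested genes were called at an adjusted p under 0.05 (edgeR's quasi-likelihood test, Benjamini-Hochberg adjustment over 16627 genes), 15 of them higher and 1 lower, against 35.7% of all genes tested in either direction and 17.4% higher. The 15 were Hoxa5, Hoxa6, Hoxa9, Hoxb3, Hoxb5, Hoxb6, Hoxb8, Hoxb9, Hoxc5, Hoxc6, Hoxc8, Hoxc12, Hoxc13, Hoxd8 and Hoxd9, and the gene that fell was Hoxb1. The log2 change was above 0 in 33 of the 35, with a median of 0.89 beside -0.01 for all genes. In B6J, 9 of the 35 were called, 6 higher and 3 lower, against 31.1% of all genes in either direction, 14.6% higher and 16.5% lower. The 6 that rose were Hoxa9, Hoxb5, Hoxc6, Hoxc8, Hoxc12 and Hoxc13, which were among the 15 that rose in 129. Hoxb1 and Hoxd1 were among the 3 that fell. The median log2 change in B6J was 0.52, beside 0.002 for all genes.

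**Figure D2:**
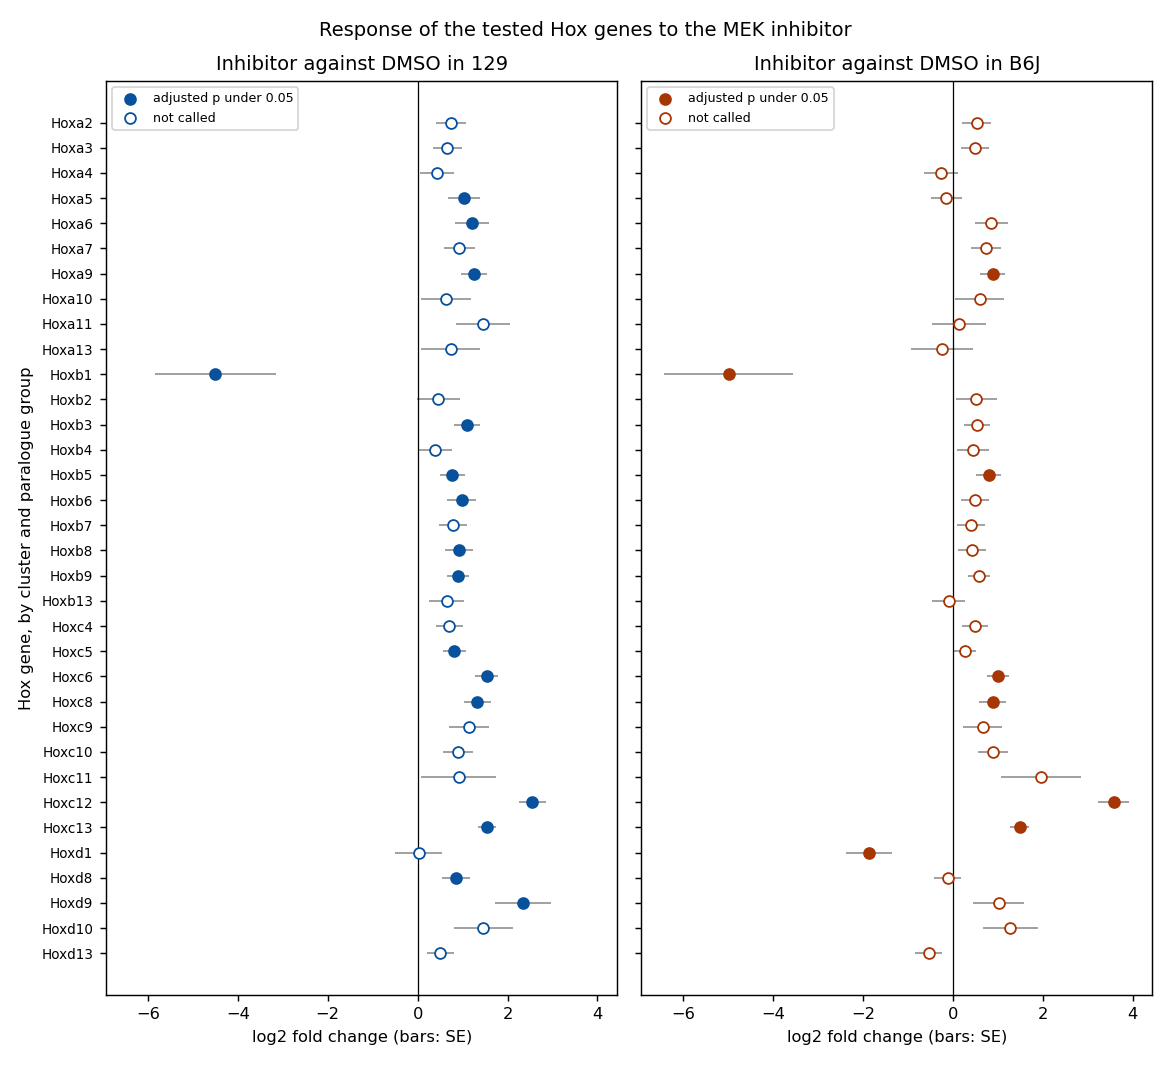
Log2 fold change, inhibitor against DMSO, of 34 of the 35 tested Hox genes in 129 (left) and B6J (right), with the standard error of the fit as a bar; filled points have an adjusted p under 0.05. In 129, 15 genes are filled above 0 and Hoxb1 below; in B6J, 6 are filled above 0 and Hoxb1 and Hoxd1 below.

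The number of calls rested on single libraries. In 129 it was 7 without inhibitor replicate 1, without DMSO replicate 2 or without DMSO replicate 3. It was 26 without DMSO replicate 1, the library furthest from its group by chi-square. Without both 129 libraries numbered 1, an alternative chosen after seeing the data, it was 22. Same-numbered 129 libraries deviated together from their group means, and a fit with that number as a block called 24 genes, 23 higher and 1 lower, the 16 included. In B6J the count was between 4 and 6 when any B6J library was left out, and 16 without both 129 libraries numbered 1. Genes whose groups did not overlap numbered 15 higher and 0 lower in 129, against 23.0% and 24.4% of all genes, and 15 higher and 4 lower in B6J, against 24.3% and 25.7%.

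By cluster, 5 of 9 genes of cluster C rose in 129 and 4 of 9 in B6J, against 17.4% and 14.6% of all genes tested. The same shares stand beside each count of rises below, and some of the smaller counts lay near them. In cluster C the log2 change was above 0 for each of the 9 in both backgrounds, with medians of 1.14 and 0.90. Counting rises alone, cluster B had 5 of 10 in 129 and 1 in B6J, and cluster A 3 of 11 and 1. Of the 5 tested genes of cluster D, 2 rose in 129 and 0 in B6J. By position, 9 of 14 tested genes of paralogue groups 4 to 8 rose in 129 and 3 in B6J. For paralogue groups 9 to 13, 5 of 14 rose in 129 and 3 in B6J. For groups 1 to 3, 1 of 7 rose in 129 and 0 in B6J; Hoxb1 and Hoxd1, which fell, also belong there. Complete paralogue groups that rose in 129 were 5 (Hoxa5, Hoxb5, Hoxc5), 6 (Hoxa6, Hoxb6, Hoxc6) and 8 (Hoxb8, Hoxc8, Hoxd8). None of groups 2, 4, 7, 10 and 11 had a called gene in either background. This split rests in part on the threshold. The median log2 change in 129 was 0.82, 1.20 and 0.92 in groups 5, 6 and 8. It was 0.86, 0.89 and 1.19 in groups 7, 10 and 11, within the same range, and 0.60 and 0.43 in groups 2 and 4. The difference between clusters or positions was not tested.

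Hoxc12 and Hoxc13 lie next to each other at the 5′ end of cluster C; Hoxc13 acts in hair and nail formation. Hoxc12 stood at 0.302, 0.252 and 0.203 CPM in 129 with DMSO and at 1.12, 1.86 and 1.51 CPM with the inhibitor. In B6J its levels were 0.0881, 0.0722 and 0.0405 CPM with DMSO, from 7, 6 and 3 counts, and 0.658, 0.863 and 0.946 CPM with the inhibitor. All inhibitor libraries lay above all DMSO libraries, and within each treatment all 129 libraries lay above all B6J libraries. The rise was 5.88-fold in 129 (log2 2.56, SE 0.30, adjusted p = 6.9e-05) and 12-fold in B6J (log2 3.58, SE 0.35, adjusted p = 1.87e-05, edgeR). The difference between the responses was 1.02 on the log2 scale with a 95% interval of 0.03 to 2.02, unadjusted, and an adjusted p of 0.373, so it was not called.

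Hoxc13 stood at 3.77, 2.11 and 2.36 CPM in 129 with DMSO and at 8.79, 7.501 and 7.87 CPM with the inhibitor. The B6J values were 1.62, 1.79 and 1.47 CPM with DMSO and 4.51, 5.06 and 4.17 CPM with the inhibitor. Groups did not overlap in either comparison of treatments, nor between backgrounds within a treatment. Hoxc13 rose 2.93-fold in 129 (log2 1.55, SE 0.20, adjusted p = 0.000168) and 2.81-fold in B6J (log2 1.49, SE 0.21, adjusted p = 0.000243). The difference between these responses was -0.06 with a 95% interval of -0.69 to 0.57 (log2, unadjusted). The responses of Hoxc12 and Hoxc13 in both backgrounds, and that of Hoxc6 in 129, were called under each of the 22 alternative settings tried.

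These 2 neighbours were the genes with a called difference between backgrounds. In DMSO, 2 of 35 Hox genes differed, 0 higher and 2 lower in B6J, against 20.9% of all genes tested (10.4% higher, 10.5% lower). With the inhibitor the same 2 differed, again lower in B6J, against 18.4% of all genes (8.90% higher, 9.47% lower). Hox genes whose backgrounds did not overlap were 6 higher and 2 lower in B6J in DMSO (19.0% and 17.9% of all genes), and 0 higher and 3 lower with the inhibitor (18.9% and 19.6%). In DMSO, the log2 difference (B6J minus 129) was -1.88 (SE 0.37, adjusted p = 0.00387) for Hoxc12 and -0.75 (SE 0.21, adjusted p = 0.0232) for Hoxc13. The Hoxc13 difference missed the threshold without B6J DMSO replicate 1 (adjusted p = 0.0615) or replicate 3 (0.0815). With the inhibitor, the difference was -0.82 (SE 0.20, adjusted p = 0.014) for Hoxc13. For Hoxc12 it was -0.86 (SE 0.27, adjusted p = 0.046). This difference was not called with a replicate block that joined same-numbered libraries of both backgrounds (-0.85, adjusted p = 0.075). It was also not called without 1 of 8 libraries: DMSO or inhibitor replicate 2 or 3 of 129, DMSO replicate 2 of B6J, or any B6J inhibitor library (adjusted p from 0.0521 to 0.161). The median difference over the tested Hox genes was 0.36 in DMSO and -0.12 with the inhibitor. Without 129 DMSO replicate 1, 8 genes differed in DMSO, 6 of them higher in B6J, and without both 129 libraries numbered 1, 11 differed, 9 of them higher. None of the 21 fibroblast markers had a called difference between backgrounds in either treatment. Their log2 difference (B6J minus 129) was nonetheless above 0 for 20 of the 21 in DMSO, with a median of 0.27. With the inhibitor it was above 0 for 15, with a median of 0.06. The part of fibroblast transcripts in the Hox differences between backgrounds was not tested.

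**Figure D3:**
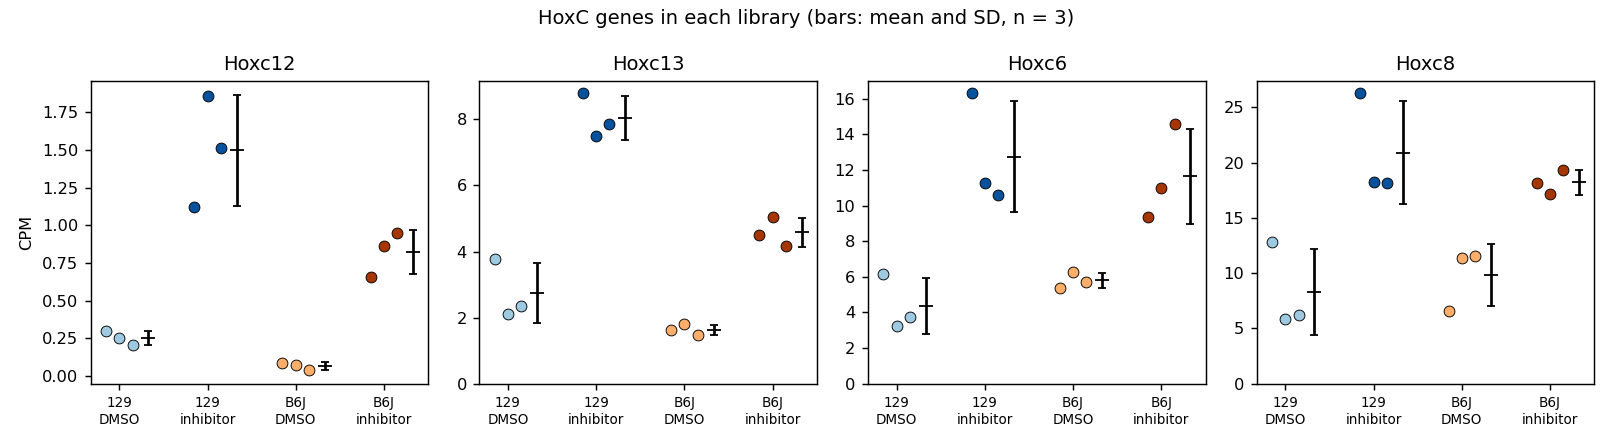
CPM of Hoxc12, Hoxc13, Hoxc6 and Hoxc8 in each of the 12 libraries, replicates 1 to 3 from left to right, with the mean and SD of the 3 libraries of each group. Hoxc12 and Hoxc13 are separated by treatment and by background, whereas Hoxc6 and Hoxc8 are separated by treatment alone.

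The homeobox is the 180 bases that encode the 60 residues of the homeodomain, the part of the protein that binds DNA. Those of Hoxc12 and Hoxc13 are shown because the responses of these genes were called under each alternative tried. Capitals mark the 18 bases for residues 48 to 53, in the helix that enters the major groove. Hoxc12 lies at chr15:102938308-102938487 and Hoxc13 at chr15:102927210-102927389, both on the plus strand of GRCm38 (GENCODE M21 transcripts), and each homeobox is in 1 exon.
Hoxc12: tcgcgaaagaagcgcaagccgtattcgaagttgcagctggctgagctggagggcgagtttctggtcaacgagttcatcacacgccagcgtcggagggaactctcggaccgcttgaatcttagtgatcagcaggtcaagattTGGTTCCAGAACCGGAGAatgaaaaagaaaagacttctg
Hoxc13: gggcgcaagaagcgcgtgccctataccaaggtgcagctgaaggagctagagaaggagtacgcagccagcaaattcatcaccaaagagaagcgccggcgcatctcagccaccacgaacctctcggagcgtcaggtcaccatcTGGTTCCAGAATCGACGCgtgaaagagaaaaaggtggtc
The 2 homeoboxes were identical at 62.2% of bases. The median was 80.6% (67.2 to 93.9%) over the 42 pairs of members with the same paralogue number and 60.6% (46.1 to 88.9%) over the other 699 pairs. Hoxc12 and Hoxc13 share no annotated exon base with another gene on either strand.

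Hoxc8 and Hoxc6, genes of the brachial and thoracic levels, were among the most abundant members. Hoxc6 stood at 6.15, 3.24 and 3.73 CPM in 129 with DMSO, and at 16.3, 11.3 and 10.6 CPM with the inhibitor. In B6J it stood at 5.40, 6.27 and 5.73 CPM with DMSO and at 9.38, 10.98 and 14.6 CPM with the inhibitor. The groups did not overlap in either background. Hoxc6 rose by a log2 change of 1.54 (SE 0.26, adjusted p = 0.000797) in 129 and 1.01 (SE 0.25, adjusted p = 0.0103) in B6J. The difference between these responses was -0.54 with an unadjusted 95% interval of -1.31 to 0.24.

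Hoxc8 stood at 12.8, 5.90 and 6.21 CPM in 129 with DMSO and at 26.3, 18.2 and 18.2 CPM with the inhibitor. Its B6J levels were 6.61, 11.4 and 11.6 CPM with DMSO and 18.2, 17.1 and 19.3 CPM with the inhibitor. All inhibitor libraries lay above all DMSO libraries. The log2 change was 1.33 (SE 0.30, adjusted p = 0.00529) in 129 and 0.89 (SE 0.30, adjusted p = 0.0409) in B6J. Leaving out any B6J library, or inhibitor replicate 2 or 3 of 129, raised the B6J value to between 0.0538 and 0.129.

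In cluster B, the most abundant gene was Hoxb9, which with its paralogues patterns the rib cage. Hoxb9 stood at 14.2, 8.60 and 7.71 CPM in 129 with DMSO and at 23.1, 17.1 and 16.4 CPM with the inhibitor. In B6J its levels were 8.96, 12.4 and 12.4 CPM with DMSO and 14.2, 15.5 and 20.98 CPM with the inhibitor. The groups were apart in both backgrounds. It rose in 129, with a log2 change of 0.89 (SE 0.25, adjusted p = 0.0153), and stood at 0.58 (adjusted p = 0.093) in B6J. The 129 call was lost without inhibitor replicate 1, DMSO replicate 2 or DMSO replicate 3 of 129 (adjusted p from 0.0586 to 0.0613).

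Hoxb3, a hindbrain and neck gene, stood at 1.07, 0.854 and 0.843 CPM in 129 with DMSO and 2.35, 2.10 and 1.49 CPM with the inhibitor. Its B6J levels were 0.768, 1.67 and 1.58 CPM with DMSO and 1.65, 1.92 and 2.25 CPM with the inhibitor. The groups were apart in 129 and overlapped in B6J, where the log2 change was 0.53 (adjusted p = 0.185) against 1.10 (adjusted p = 0.0133) in 129. Of its exon bases, 47.1% were free of another annotated gene on either strand.

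Hoxb6 stood at 2.85, 1.29 and 1.37 CPM in 129 with DMSO and 4.94, 3.19 and 2.77 CPM with the inhibitor, with inhibitor replicate 3 below DMSO replicate 1. Hoxb8, which also acts in blood precursors, stood at 3.25, 2.02 and 1.40 CPM with DMSO and 5.36, 3.44 and 3.85 CPM with the inhibitor in 129. In B6J, Hoxb6 had group means of 2.36 ± 0.33 and 3.33 ± 0.66 CPM, and Hoxb8 of 2.86 ± 0.47 and 3.86 ± 1.20 CPM. The 129 rises were 0.98 (adjusted p = 0.0327) and 0.92 (adjusted p = 0.0398) on the log2 scale, and neither was called without inhibitor replicate 1, DMSO replicate 2 or DMSO replicate 3 of 129 (adjusted p from 0.109 to 0.139). The Hoxb8 call was also lost without inhibitor replicate 3 of 129, DMSO replicate 2 or 3 of B6J or inhibitor replicate 2 of B6J (adjusted p from 0.0526 to 0.0684), and was kept in 5 of the 12 single-library omissions. Hoxb5, called in both backgrounds, changed by 0.77 (adjusted p = 0.0488) in 129 and 0.80 (adjusted p = 0.0432) in B6J. Both Hoxb5 calls lay near the threshold, and 9 of the 12 single-library omissions ended the 129 call and 8 the B6J call, with adjusted p up to 0.169 (without inhibitor replicate 1 of 129) and 0.154 (without inhibitor replicate 3 of B6J).

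In cluster A, Hoxa9, a regulator of blood stem cells, stood at 0.823, 0.392 and 0.531 CPM in 129 with DMSO and 1.74, 1.15 and 1.27 CPM with the inhibitor. Its B6J levels were 0.705, 0.662 and 0.836 CPM with DMSO and 1.37, 1.12 and 1.60 CPM with the inhibitor. Inhibitor libraries lay above DMSO libraries in both backgrounds, and the log2 changes were 1.25 (adjusted p = 0.00579) and 0.89 (adjusted p = 0.031). The B6J call was lost without any of 5 of the 6 B6J libraries, DMSO replicates 1, 2 and 3 and inhibitor replicates 1 and 3 (adjusted p from 0.0527 to 0.101).

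Hoxa5, which acts in the neck, lung and airway, stood at 3.18, 1.58 and 1.79 CPM in 129 with DMSO and at 6.34, 4.09 and 3.004 CPM with the inhibitor. In B6J its levels were 2.77, 5.37 and 3.75 CPM with DMSO and 2.91, 3.56 and 4.31 CPM with the inhibitor. The groups overlapped in both backgrounds, and the log2 change was 1.03 in 129 (adjusted p = 0.0378) and -0.14 in B6J (adjusted p = 0.796). The 129 call was lost without inhibitor replicate 1 or 2 or DMSO replicate 2 or 3 of 129, or without inhibitor replicate 2 or DMSO replicate 3 of B6J (adjusted p from 0.0514 to 0.159). Hoxa7, the gene of cluster A with the highest CPM under the inhibitor, stood at 5.78, 2.03 and 2.75 CPM in 129 with DMSO and 8.26, 6.32 and 5.58 CPM with the inhibitor. In B6J it stood at 3.88, 5.11 and 4.05 CPM with DMSO and at 5.58, 6.72 and 9.37 CPM with the inhibitor. Groups were apart in B6J and overlapped in 129. Its log2 changes of 0.93 (adjusted p = 0.0516) in 129 and 0.73 (adjusted p = 0.124) in B6J missed the threshold.

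Of the rarer genes that rose in 129, Hoxd9 had 10, 0 and 6 counts with DMSO and 25, 32 and 30 with the inhibitor (log2 2.34, adjusted p = 0.0121). In B6J Hoxd9 had 12, 12 and 11 counts with DMSO and 18, 26 and 34 with the inhibitor (log2 1.02, adjusted p = 0.198), and groups were apart in both backgrounds. Hoxa6 changed by 1.20 (adjusted p = 0.0284), Hoxc5 by 0.82 (adjusted p = 0.0282) and Hoxd8 by 0.86 (adjusted p = 0.0482) in 129. None of these 3 was called without inhibitor replicate 1, DMSO replicate 2 or DMSO replicate 3 of 129 (adjusted p up to 0.193). Hoxd8 kept its call in 2 of the 12 single-library omissions, those of DMSO replicate 1 and inhibitor replicate 2 of 129, and Hoxa6 and Hoxc5 in 9 each.

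Hoxb1 and Hoxd1 fell in B6J, and Hoxb1 fell in 129 as well. Both are 3′ genes that respond to retinoic acid in ES cells; Hoxb1 acts in the hindbrain and is known to sustain its own expression with Pbx partners. No exon base of either is shared with another annotated gene.

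Hoxb1 had 0, 82 and 54 counts in 129 with DMSO and 0, 6 and 0 with the inhibitor. In B6J it had 39, 34 and 54 counts with DMSO and 0, 2 and 2 with the inhibitor. The libraries at 0 allow up to 0.0411 CPM (129 DMSO replicate 1), 0.0414 (129 inhibitor replicate 1), 0.0363 (129 inhibitor replicate 3) and 0.0369 (B6J inhibitor replicate 1), for counting error only. These limits also take each count as independent, and may be higher because most low values were even. Both 129 libraries numbered 1 were at 0, so the 129 groups overlapped; the B6J groups did not. The log2 change was -4.50 (SE 1.35, adjusted p = 0.0228) in 129 and -4.99 (SE 1.43, adjusted p = 0.0206) in B6J with edgeR. With limma-voom neither passed (0.265 and 0.104). The 129 call was lost without DMSO replicate 2, DMSO replicate 3, inhibitor replicate 1 or inhibitor replicate 3 of 129, and the B6J call without any inhibitor library or DMSO replicate 3 of B6J, with adjusted p of at most 0.0803 and 0.0688.

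Hoxd1 had 8, 12 and 10 counts in 129 with DMSO and 6, 16 and 10 with the inhibitor. In B6J it had 14, 30 and 30 counts with DMSO and 6, 4 and 12 with the inhibitor. The B6J groups did not overlap. Its log2 change was -1.87 (SE 0.51, adjusted p = 0.016) in B6J and 0.02 (SE 0.52, adjusted p = 0.976) in 129. The B6J call was lost without DMSO replicate 2 or 3, or inhibitor replicate 1 or 2, of B6J (adjusted p from 0.05004 to 0.071).

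Markers of other early lineages changed in the same comparisons, in which 18.2% of all genes tested fell and 17.4% rose in 129. In B6J, 16.5% of all genes fell and 14.6% rose. Of 11 tested genes of a list for mesoderm and primitive streak, where Hoxb1 is normally expressed early, 7 fell and 2 rose in 129, and 5 fell and 1 rose in B6J. The summed level of the list was 224 ± 46.8 CPM in 129 with DMSO and 17.4 ± 4.94 with the inhibitor, and 52.0 ± 14.6 and 12.2 ± 0.90 CPM in B6J. Of 6 tested trophoblast markers, 4 fell and 2 rose in 129, and 4 fell and 1 rose in B6J, with sums of 469 ± 269 and 113 ± 5.01 CPM in 129 and 497 ± 68.7 and 120 ± 2.52 CPM in B6J. Of 7 primitive endoderm markers, 4 fell in 129, where replicate 1 with DMSO was high, and 0 were called in B6J. Of 6 tested neural markers, Nes, an intermediate filament of neural precursors, fell in both backgrounds, from 248 ± 6.76 to 66.8 ± 4.94 CPM in 129. Neurog1, a proneural factor, rose in B6J by 2.79 on the log2 scale, and no other neural marker was called. The neural list thus had 16.7% called in 129 and 33.3% in B6J, beside 35.7% and 31.1% of all genes. The part of these cells in the fall of Hoxb1 and Hoxd1 was not tested.

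**Figure D4:**
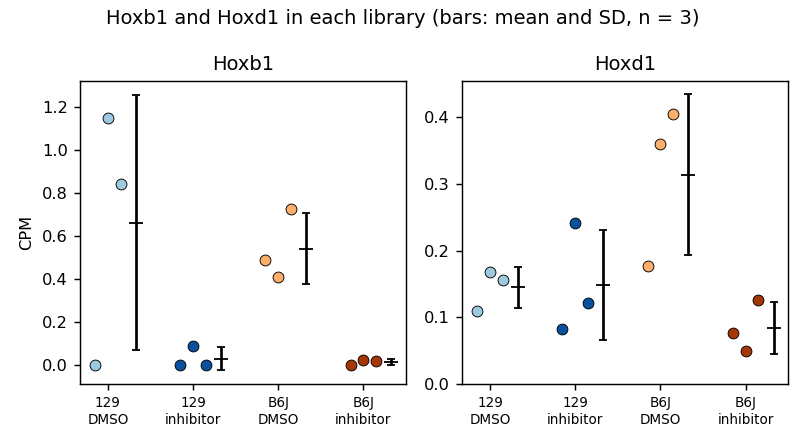
CPM of Hoxb1 and Hoxd1 in each of the 12 libraries, replicates 1 to 3 from left to right, with the mean and SD of the 3 libraries of each group. In B6J the DMSO and inhibitor libraries are apart for both genes, and in 129 they overlap, with Hoxb1 at 0 in replicate 1 of both treatments.

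Whether the responses differed between backgrounds was tested as an interaction term. None of the 35 Hox genes passed with edgeR, against 1.48% of all genes tested (0.710% higher, 0.770% lower in B6J); at an unadjusted p under 0.05, 1 was higher and 5 were lower in B6J relative to 129. DESeq2 called 1 and limma-voom 0. The interaction was -1.89 for Hoxd1 (adjusted p = 0.283, unadjusted 95% interval -3.49 to -0.29) and -0.49 for Hoxb1 (0.952, -5.18 to 4.20). For Hoxd13, whose log2 changes had opposite signs, it was -1.04 (0.318, -1.96 to -0.11). The B6J value was below the 129 value in 29 of the 35 genes, with a median difference of -0.44 beside 0.001 for all genes. Leaving out 129 DMSO replicate 1 moved this median to -0.76, and leaving out 129 inhibitor replicate 1 moved it to -0.19. The 21 fibroblast markers had a median interaction of -0.22, with 2 of the 21 above 0.

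The summed level of the 39 Hox genes moved with the fibroblast markers, and the part of fibroblast transcripts in these responses was not tested. The sum stood at 79.5, 46.5 and 46.6 CPM in 129 with DMSO, and at 142, 102 and 100 CPM with the inhibitor. In B6J it stood at 57.4, 79.1 and 74.5 CPM with DMSO and at 86.7, 97.0 and 122 CPM with the inhibitor. The fibroblast sum in the same order was 5470, 2768 and 2902 CPM, then 11110, 7109 and 7597 CPM in 129, and 4021, 4910 and 4428 CPM, then 6730, 8823 and 10760 CPM in B6J. The library with most Hox transcripts was the one with most fibroblast transcripts in 4 of 4 groups, and the lowest matched in 3 of 4, the exception being 129 with the inhibitor. Of the 21 fibroblast markers, 16 rose in 129 and 14 in B6J, against 17.4% and 14.6% of all genes called higher, and none fell. Among the 4 defining markers, Col1a1 rose by 1.46 and 1.10, Dcn by 2.19 and 1.83 and Prrx1 by 1.08 and 0.94 on the log2 scale in 129 and B6J. The fourth, Twist2, changed by 0.05 (adjusted p = 0.93) and -0.46 (adjusted p = 0.372), and none of the 4 was at 0 in any group. Per 1000 CPM of fibroblast markers, the Hox sum was 15.8 ± 1.15 in 129 with DMSO, 13.4 ± 0.78 with the inhibitor, 15.7 ± 1.32 in B6J with DMSO and 11.7 ± 1.00 with the inhibitor.

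**Figure D5:**
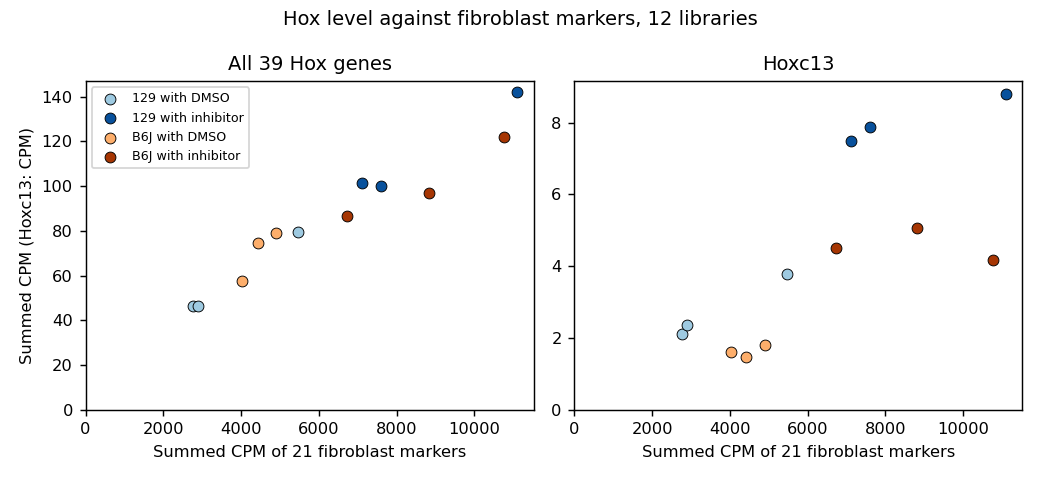
Summed CPM of the 39 Hox genes (left) and CPM of Hoxc13 (right) against the summed CPM of 21 fibroblast markers in the 12 libraries, coloured by group. The Hox sum runs from 46.5 to 142 CPM along with the markers, and Hoxc13 in B6J stays below 129 at like marker levels.

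With the mean log2 level of the fibroblast markers added to the fit as a covariate, the median Hox response was -0.09 in 129 and -0.33 in B6J. The covariate itself did not overlap between treatments. It was at most 6.20 with DMSO and at least 6.52 with the inhibitor in 129, and 6.09 and 6.49 in B6J. The adjusted responses thus rest on the spread within groups of 3 libraries, and this fit cannot separate treatment from fibroblast level. Of all genes, 28.7% were called in 129 and 29.8% in B6J in that fit. The Hox genes called in 129 were then 6, Hoxc6, Hoxc12, Hoxc13 and Hoxb13 higher and Hoxb2 and Hoxb4 lower. In B6J they were 7, with Hoxc12 and Hoxc13 higher and Hoxa4, Hoxa5, Hoxa10 and Hoxb7 among those lower. Hoxc12 and Hoxc13 in B6J thus passed with the covariate, and 12 of the 29 calls made in the 5 contrasts were lost and 7 changed sign. Hoxb1 was among those that changed sign in 129 (1.52, adjusted p = 0.653).

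Genes that act with Hox factors or upstream of them were read from lists by function. Of 9 Hox cofactors of the Pbx, Meis and Pknox families, 3 (33.3%) were called in each background, 1 higher and 2 lower, near the 35.7% of all genes called in 129 and 31.1% in B6J. Pbx3, a DNA-binding partner of Hox proteins, fell by 1.00 in 129 (adjusted p = 0.000159) and 1.02 in B6J (adjusted p = 0.000139) on the log2 scale. Pbx2 changed by -0.59 and -0.72 and Pknox2 by 1.30 and 1.00, all called. The interaction was called for none of the 9.

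Of 19 regulators of Hox induction, which include Cdx genes and the retinoic acid pathway, 7 (36.8%, beside 35.7% of all genes) were called in 129, 6 of them lower, and 10 (52.6%, beside 31.1%) in B6J, 7 of them lower. Cdx2, which activates central Hox genes, had a log2 change of -3.07 in 129 and -2.34 in B6J, and Cdx1 of -1.22 and -1.38, all 4 called. Cdx4 stood at 0.595 ± 0.322 CPM in 129 with DMSO and 0.457 ± 0.172 with the inhibitor, but at 4.45 ± 1.20 and 0.124 ± 0.047 CPM in B6J. Its log2 change was -0.37 (adjusted p = 0.544) in 129 and -5.14 (adjusted p = 1.9e-05) in B6J, and the interaction of -4.78 was called (adjusted p = 0.00572). Rarb, a retinoic acid receptor that is itself induced by retinoic acid, had log2 changes of -1.21 and -2.26, and Rxrg of -4.59 and -2.93, all called. Cyp26a1, which degrades retinoic acid, changed by -3.90 (adjusted p = 0.00625) in 129 and -2.65 (adjusted p = 0.0693) in B6J, and Cyp26b1 by 1.45 and 1.13, both called.

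Of 26 Polycomb and Trithorax genes, 7 were called in each background, 26.9% of the list, below the 35.7% and 31.1% of all genes. In 129, 6 were higher and 1 lower, beside 17.4% and 18.2% of all genes. In B6J, 5 were higher and 2 lower, beside 14.6% and 16.5%. The log2 changes ran from -0.53 to 0.86 in 129 and from -0.75 to 0.87 in B6J. Eed, a core subunit of Polycomb repressive complex 2, rose by 0.36 (adjusted p = 0.000565) in 129 and 0.31 (adjusted p = 0.00194) in B6J. Bmi1, of Polycomb repressive complex 1, rose by 0.86 (adjusted p = 0.046) and 0.87 (adjusted p = 0.0494).

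Among 15 tested genes flanking the clusters, 5 (33.3%, beside 35.7% of all genes) were called in 129, 4 of them higher, and 7 (46.7%, beside 31.1%) in B6J, 5 of them higher. Calcoco2 and Ttll6, beyond the 5′ end of cluster B, rose by 3.09 and 2.12 in 129 and by 2.82 and 1.98 in B6J. The noncoding gene Gm53, inside cluster B at chr11:96251105-96264868 on the plus strand, stood at 4.37 ± 0.19 CPM in 129 with DMSO and 16.6 ± 1.64 with the inhibitor. In B6J it stood at 4.30 ± 0.61 and 14.1 ± 1.07 CPM. Gm53 rose by a log2 change of 1.93 (adjusted p = 1.51e-06) and 1.71 (adjusted p = 3.81e-06). Halr1, a noncoding gene beyond the 3′ end of cluster A, stood at 9.20 ± 3.03 CPM in B6J with DMSO and 1.70 ± 0.31 with the inhibitor, a log2 change of -2.44 (adjusted p = 0.00452). In 129 its log2 change was -0.83 (adjusted p = 0.225), and the interaction of -1.61 was not called (adjusted p = 0.374).

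RefSeq promoter windows on GRCm38.p6, taken as the 250 bases before a start site, were at hand for 24 starts of 22 of the 39 members. The ratio of observed to expected CpG had a median of 0.72 in these and 0.37 over all 32851 windows. The motif TGATNNAT of Pbx-Hox dimers was searched on both strands, with overlaps allowed, and found in 4 of the 24 (16.7%), against 7.7% of all windows, and TTTATG, a Cdx-type motif, in 5 (20.8%), against 10.8%. The bases from 250 to 51 before the start are printed for Hoxb1 (chr11:96365508-96365707) and Hoxd1 (chr2:74762730-74762929), both on the plus strand, since both genes fell in B6J and their windows differ. Capitals mark the TGATNNAT match TGATGGAT, which begins 162 bases before the start in Hoxb1.
Hoxb1: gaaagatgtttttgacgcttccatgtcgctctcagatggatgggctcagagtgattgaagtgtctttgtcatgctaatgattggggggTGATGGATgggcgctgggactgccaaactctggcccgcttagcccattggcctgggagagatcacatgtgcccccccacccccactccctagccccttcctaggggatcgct
Hoxd1: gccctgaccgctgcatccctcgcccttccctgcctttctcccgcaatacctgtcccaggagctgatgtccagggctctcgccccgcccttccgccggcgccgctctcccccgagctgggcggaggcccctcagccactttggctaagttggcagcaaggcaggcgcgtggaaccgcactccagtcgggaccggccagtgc
The observed to expected CpG ratio of the 250 bases was 0.32 for Hoxb1 and 0.76 for Hoxd1, and the Hoxd1 window held neither motif.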

How the data were processed

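The authors deposited whole-number read counts per gene for 12 libraries, not normalized, per the file headers and values. Per the submitters' processing notes the tools include HTSeq 0.6.1p1, STAR 2.7.10, DESeq and SAMtools, and the builds are GRCm38 and mm10; their roles, the strand setting and the annotation are not given. In each library 70.09 to 73.37% of the values up to 20 were even, so halved counts were tried. The members, lists, contrasts and alternatives were chosen with earlier results of these data known.

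Genes passing edgeR's filterByExpr (minimum count 10, minimum total 15) were kept, 16627 in all. All 12 libraries entered 1 quasi-likelihood fit (edgeR 4.0.16, R 4.3.3) with TMM scaling and 4 group means. SEs were computed as the absolute log2 change over the square root of F. Intervals of the interaction used the t distribution on the test's 11.42 degrees of freedom. limma 3.58.1 and DESeq2 1.42.0 were alternatives. CPM per kb used GENCODE M21 exon lengths. No libraries were duplicates (chi-square per degree of freedom at least 7.17). Same-numbered libraries in 129 deviated together (correlations 0.442, 0.295 and 0.222), although libraries 2 and 3 correlated nearly as much across numbers (0.209 and 0.194). In B6J the correlations were -0.188, 0.088 and -0.17. The replicate block was fitted within each background for the responses and the interaction. For the contrasts between backgrounds it joined 129 and B6J libraries of the same number. Their correlations ran from -0.32 to 0.139, and nothing in the labels pairs them. Named members of the companion lists were some, not all, of the genes called in at least 1 background, and the 4 defining fibroblast markers. The values of 1 member are not reported here; it is part of the counts and sums over members.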

Additional observations from a re-analysis of the deposited data

How the results depend on the processing

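The alternatives were another size factor (RLE), DESeq2, limma-voom, no filter, a stricter filter, only the groups compared, the replicate block, halved counts, the fibroblast covariate, and leaving out each library. Of the 29 calls of Hox genes in the 5 contrasts, 8 were made under each setting, among them Hoxc12 and Hoxc13 in both responses, Hoxc6 in 129, Hoxc12 between backgrounds in DMSO and Hoxc13 with the inhibitor. DESeq2, RLE factors and halved counts kept all 29. Where a value below differs, the cause was not tested.

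The 16 genes called in 129 became 7 when only the groups compared were fitted, 6 with the fibroblast covariate, and 7 to 26 with a library left out. The 9 called in B6J became 13 when only the groups compared were fitted, so B6J had more calls than 129 in that setting. The B6J count was 4 to 12 with a library left out, and 16 without both 129 libraries numbered 1. The interaction had 0 calls with each library left out, and 1 with DESeq2. Between backgrounds in DMSO, the 2 calls became 1 when only the groups compared were fitted, 1 to 8 with a library left out, and 11 without both 129 libraries numbered 1. With the inhibitor, the 2 calls became 1 with no filter, 1 when only the groups compared were fitted, 1 with the replicate block, and 1 to 2 with a library left out. The replicate block lost no other of the 29 calls and made 24 in 129 and 11 in B6J; the B6J libraries share only a number.

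With the fibroblast covariate, the 129 log2 change reversed to -0.30 for Hoxa5, 1.52 for Hoxb1, -0.27 for Hoxb6, -0.27 for Hoxb8, -0.084 for Hoxb9, -0.094 for Hoxc5, -0.012 for Hoxd8, -1.28 for Hoxb2 and -1.01 for Hoxb4. The B6J change reversed to -0.21 for Hoxb9, 0.089 for Hoxd13, -1.27 for Hoxa10 and -0.63 for Hoxb7, and the interaction of Hoxc13 to 0.051. Values near 0 changed sign elsewhere. The 129 change of Hoxd1 was -0.093 with limma-voom, -0.03 with the replicate block and -0.48 to 0.31 with a library left out. With a library left out, the B6J change of Hoxa5 ran from -0.34 to 0.14, the interaction of Hoxb1 from -1.16 to 3.73 and that of Hoxc13 from -0.36 to 0.10. Depth limits members with few counts, among them Hoxb1 (0 to 82 in a library), Hoxc11 (0 to 30) and Hoxa13 (4 to 34).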
